A study of Mus musculus with 32 samples.

Results

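The replication-dependent histone genes encode the bulk histones that package newly copied DNA. They were taken as every gene row whose symbol begins with Hist1h, Hist2h, Hist3h or Hist4h and that held at least 10 counts over the libraries of a table. Of 68 such rows, 67 reached 10 counts in at least 1 of the 4 count tables. The exception was Hist1h2aa. The 67 genes were 6 of the linker histone H1, 17 of H2A, 19 of H2B, 12 of H3 and 13 of H4, and 55 of them reached 10 counts in all 4 tables. There were 60 members among 23284 genes in the leukaemia table, 56 of 23951 in the adult bone marrow table, 65 of 22803 in the fetal table of the total knockout and 56 of 23955 in the fetal table of the f-PRDM16 knockout. The choice by symbol also takes in 1 pseudogene, Hist3h2bb-ps, and genes best known from testis, such as Hist1h1t and Hist1h2ba. Hist1h2ac was not analysed in the total-knockout fetal table.

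The study compared mouse blood cells with and without PRDM16, a transcriptional regulator made in a full-length form (f-PRDM16) and a short form (s-PRDM16). Sorted leukaemia cells driven by the MLL-AF9 fusion, taken from moribund mice, came as 4 groups of 3 libraries: wild type with empty vector (WT+EV), PRDM16-KO with empty vector (KO+EV), PRDM16-KO overexpressing f-PRDM16 (KO+f) and PRDM16-KO overexpressing s-PRDM16 (KO+s). All 4 of these groups carry MLL-AF9. Sorted haematopoietic stem cells (HSCs, gated as Lin-cKit+Sca1+CD48-) came from adult bone marrow (4 libraries labelled PRDM16-KO and 4 wild type), from fetal liver (3 PRDM16-KO and 3 wild type) and from fetal liver of a 47bp line labelled as an f-PRDM16 knockout that expresses s-PRDM16 only (3 knockout and 3 wild type of its own). The labels of the adult libraries begin with VAVBM, and those of the fetal PRDM16-KO libraries and their wild types with VAVFL. Beyond these labels, the sources used here do not give the driver of the deletion. The age of the adult mice and the day of the fetuses are not given either.

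Replication-dependent histone genes lie in clusters as many near-identical copies and are transcribed mainly in S phase. Their RNA is the exception among messenger RNAs in that it normally ends in a conserved stem-loop and carries no poly(A) tail: the stem-loop binding protein Slbp holds the loop, and the U7 particle directs a cut just after it. A smaller polyadenylated fraction arises when the cut after the stem-loop is bypassed, and is known from differentiating and non-dividing cells. All libraries here were made after a poly-A pull-down, so every value below describes that polyadenylated fraction and not the total histone RNA of the cells.

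Library totals were 16353584 to 23785307 counts in leukaemia, 22490805 to 29343602 in bone marrow, 26715538 to 33246080 in the total-knockout fetal table and 35503288 to 44952448 in the f-PRDM16-knockout fetal table. Values are CPM, the usual scaling of counts to a common library size, here with library sizes adjusted by TMM (a trimmed mean of ratios between libraries). Prdm16 itself was at 0.0 to 0.0915 CPM in KO+EV against 0.424 to 0.99 in WT+EV, and at 192 to 331 after add-back. It was lower in both fetal knockouts (11.3 to 24.7 against 24.9 to 39.7 CPM, and 6.53 to 9.73 against 13.4 to 32.4). In bone marrow it overlapped (13.3 to 41.1 CPM in libraries labelled KO, 10.9 to 52.3 in WT), and a count over the whole gene cannot test a deletion of part of it. The 8 HSC markers summed to 1334 to 4524 CPM in the HSC libraries, with none of them at 0 in any HSC group, and to 139 to 520 in leukaemia. In bulk RNA, fewer cells of a type and less RNA per cell cannot be told apart.

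The stem-loop is shown first because the cut after it normally leaves a histone RNA without a poly(A) tail. A 16-base stem-loop (6 pairs and a 4-base loop) was searched in the GENCODE M21 transcript of each gene. It was found in 43 of the 68 rows, and in 676 of 58725 other protein-coding transcripts (1.15%). The sites below belong to members on which the results turn. The capitals mark the stem-loop, with 5 bases of context on each side, written as DNA.
Hist1h1c: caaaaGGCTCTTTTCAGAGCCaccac
Hist3h2a: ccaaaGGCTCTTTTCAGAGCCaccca
Hist1h2ac: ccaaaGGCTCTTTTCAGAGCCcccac
Hist1h2ao: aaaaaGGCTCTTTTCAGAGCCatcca
Hist1h2bg: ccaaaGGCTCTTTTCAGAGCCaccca
Hist1h3e: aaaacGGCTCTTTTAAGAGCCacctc
Hist1h4d: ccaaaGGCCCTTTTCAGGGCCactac
Hist1h4i: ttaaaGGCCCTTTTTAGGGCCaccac

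The commonest site was shared across H1, H2A, H2B and H3, and the H4 sites differed from it in the stem. The last loop base also departed from it, in 1 H1, 1 H2A, 2 H2B, 3 H3 and 2 H4 genes. The form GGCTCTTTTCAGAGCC stood in 3 H1, 10 H2A, 7 H2B and 5 H3 genes. None of the H4 sites had it: 7 had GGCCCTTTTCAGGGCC, 2 had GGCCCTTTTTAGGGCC and 2 had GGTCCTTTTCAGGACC.

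What set the members apart was how far the annotated transcript ran past the loop. In 22 members it ran on for more than 100 bases (here called long), in 21 it ended within 100 bases (short), and 25 transcript models held no match (median length 411 bases, against 1255 for long and 482 for short). A poly(A) signal (AATAAA or ATTAAA in the last 60 bases) ended 11 of the 22 long transcripts and 1 of the 21 short ones. Hist1h1c, the H1.2 linker histone, ran 840 bases past its loop, and Hist3h2a 1643, while Hist1h2ao ran 31.

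In 3 of the 4 tables the counts, not scaled by transcript length, lay mainly or in large part on long transcripts. In leukaemia 1 of these, Hist1h1c, held 57.0% of member counts over all libraries. Long transcripts took 65.8 to 86.3% of member counts in each leukaemia library, 61.6 to 65.5% in bone marrow and 47.7 to 52.8% in the f-PRDM16-knockout fetal table. Short transcripts took 2.51 to 9.4%, 4.11 to 7.5% and 6.79 to 11.7%. In the total-knockout fetal table the order was turned: long transcripts took 5.36 to 7.27% and short ones 47.5 to 49.5%. Near-identical copies with like counts, described below, lead its short class, so these shares can hold the same reads more than once. Transcripts with no match took 10.4 to 24.8% in leukaemia and 28.3 to 32.7% in bone marrow. They took 45.1 to 45.5% in the total-knockout fetal table and 36.3 to 41.0% in the other.

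Promoters are shown for Hist1h1c, the most abundant member in leukaemia, and Hist1h2bg, which differs from it in the motifs it holds. Each is the 250 bases before the start site from RefSeq (build GRCm38.p6), on chr13:23738557-23738806 and chr13:23571150-23571399, both on the + strand. Capitals mark matches on either strand of the CCAAT box, the TATA box (TATAAA) or the octamer (ATTTGCAT), and ATTGG is the CCAAT box on the other strand.
Hist1h1c: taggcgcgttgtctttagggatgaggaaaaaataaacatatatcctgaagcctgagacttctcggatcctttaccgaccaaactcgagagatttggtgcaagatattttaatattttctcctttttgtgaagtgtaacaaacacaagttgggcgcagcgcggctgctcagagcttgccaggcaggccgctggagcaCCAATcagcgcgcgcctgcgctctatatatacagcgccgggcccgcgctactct
Hist1h2bg: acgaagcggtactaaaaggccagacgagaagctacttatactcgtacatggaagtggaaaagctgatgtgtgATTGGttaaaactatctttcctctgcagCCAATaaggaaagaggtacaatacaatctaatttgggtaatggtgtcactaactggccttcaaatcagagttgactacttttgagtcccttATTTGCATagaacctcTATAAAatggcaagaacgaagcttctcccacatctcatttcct

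Of the 68 rows, 61 matched a RefSeq promoter, searched over 250 bases before and 50 after the start. CCAAT was in 52 of them (85.2%) against 37.4% of 32851 promoters of the same length. It was in all H1, H2A, H2B and H3 promoters matched and in 3 of 12 of H4. TATAAA was in 35 (57.4%, against 13.6%). The octamer ATTTGCAT was in 7 of 17 H2A and 6 of 16 H2B promoters and in none of the others, against 1.74% of all promoters. A match is a description of these letters and does not show that a factor binds.

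Near-identical copies set a second limit on these values. For each member, the share of transcript 50-mers that also occur in a gene at another locus was computed from GENCODE. It was under 20% in 17 rows, among them Hist1h1a to Hist1h1e, Hist3h2a, Hist2h2be and Hist1h4d, and 80% or more in 15. In the total-knockout fetal table some copies held the same counts: Hist1h2bq and Hist1h2br had 167570 each, Hist2h2aa1 and Hist2h2aa2 28974 each, and Hist1h2ao and Hist1h2ap 160788 and 160782, never more than 3 counts apart in a library. Of the 15 rows with 80% or more shared sequence, 0 were at 0 counts there, while 6 were at 0 in leukaemia, 7 in bone marrow and 7 in the other fetal table.

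The same split showed in the wild-type fetal HSCs of the 2 tables, which carry the same gate and tissue labels. For 14 members sharing under 20% the ratio of mean CPM (total-knockout table over f-PRDM16-knockout table) had a median of 0.804, from 0.218 to 27.1, the highest being Hist1h2bh. For 33 members sharing 20 to under 80% the median was 7.6, and for 8 sharing 80% or more it was 134. In the total-knockout table the members sharing 80% or more took 72.5 to 76.8% of member counts, against at most 3.09% in any library of the other tables. How reads with several matches were counted is not given in the sources used here. The summed levels of that table are therefore not set against the others below.

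**Figure D1:**
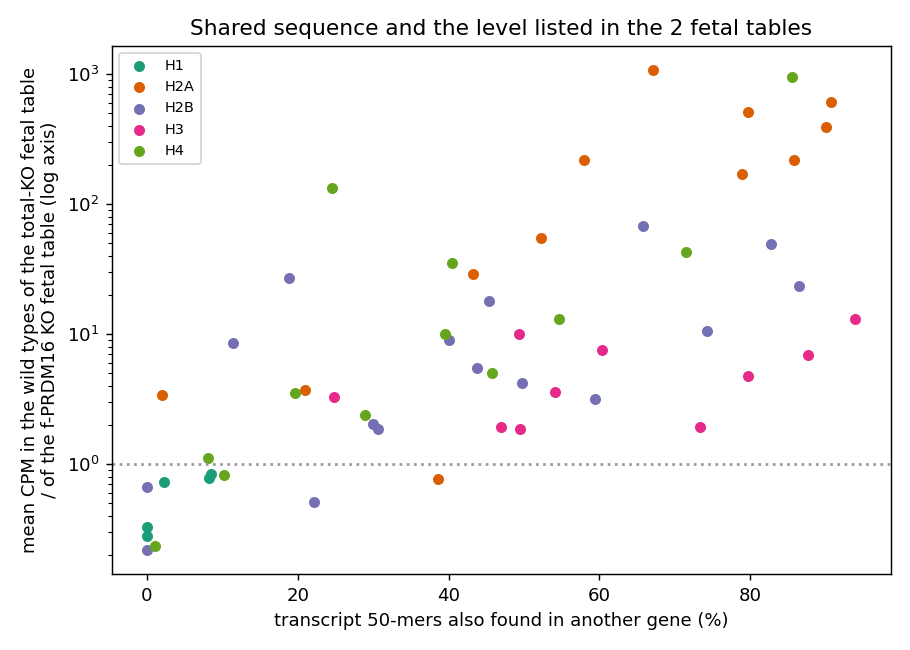
Each point is a histone gene with at least 10 counts in the f-PRDM16-knockout fetal table. The x axis gives the percentage of its transcript 50-mers found in another gene, and the y axis (log) the ratio of its mean CPM in the wild types of the 2 fetal tables. Ratios of the H1 genes lie below 1, and those of most H2A genes with shared sequence lie far above it.

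In the leukaemia cells 1 gene dominated. Hist1h1c took 33.7 to 66.5% of member counts and was the highest member in 12 of 12 libraries. Per kilobase of its GENCODE transcript it stood at a mean of 77.9 CPM, against 15.9 for Hist1h2bg, 13.6 for Hist1h4i, 11.0 for Hist1h2bc, 6.34 for Hist3h2a and 3.53 for Hist2h2be. Summed per kilobase, H1 was the highest type in 11 of 12 libraries and H3 the lowest in 11 of 12. The transcript that the deposited counts used may differ from the GENCODE model.

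Without PRDM16 the polyadenylated histone RNA of leukaemia cells was lower in the estimate of every member tested, but no member passed the test. Hist1h1c was at 154, 260 and 233 CPM in WT+EV and at 53.5, 20.8 and 163 CPM in KO+EV. The 3rd KO+EV library lies inside the WT+EV range, and the other two lie far below it. The log2 change was -1.45 ± 0.58 (SE, n = 3 and 3; edgeR quasi-likelihood adjusted p = 0.219).

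Hist1h2bc, an H2B gene, was at 13.0, 28.6 and 21.2 CPM in WT+EV and at 3.97, 1.97 and 14.9 CPM in KO+EV (-1.60 ± 0.63, edgeR adjusted p = 0.211). Again the 3rd KO+EV library overlapped the wild type. Hist1h2ac, an H2A gene, was at 5.36, 13.6 and 11.3 against 1.68, 0.32 and 5.47 CPM. It had the largest span over the 12 libraries of the 10 leading members, 42.4-fold from lowest to highest.

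The 3 members with the smallest p were of low abundance and their groups did not overlap. Hist1h2be, an H2B gene, was at 1.57, 1.39 and 1.13 CPM in WT+EV and 0.712, 0.457 and 0.416 in KO+EV (-1.36 ± 0.38, edgeR adjusted p = 0.0887). In GENCODE it overlaps Hist1h1e on the same strand, an overlap that the shared 50-mer percentage leaves out. How reads in the overlap were counted is not given. Hist1h1b, the H1.5 linker histone, was at 4.08, 3.71 and 1.6 against 1.32, 0.869 and 1.15 CPM (-1.49 ± 0.42, edgeR adjusted p = 0.0913). Hist1h1a, the H1.1 linker histone, was at 2.45, 2.27 and 1.37 against 1.12, 0.503 and 0.781 CPM (-1.33 ± 0.43, edgeR adjusted p = 0.126). In each, even the highest knockout library was below the lowest wild type.

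Not every abundant member was far apart. Hist3h2a, on chromosome 11 away from the large Hist1 cluster on chromosome 13, was at 11.2, 18.2 and 16.2 CPM in WT+EV and 13.9, 4.62 and 13.9 CPM in KO+EV. Hist2h2be, on chromosome 3, was at 12.4, 10.7 and 7.11 against 8.14, 9.33 and 7.08 CPM. Hist1h4i, an H4 gene, was at 17.9, 13.1 and 11.7 against 8.95, 8.6 and 18 CPM. All 3 overlapped between the groups.

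Over the members, 36 of 60 passed the filter on low counts, and 0 of these 36 passed edgeR at an adjusted p under 0.05, where 2.1% of all 12958 genes tested did. At an unadjusted p under 0.05 there were 11, all lower, against 18.1% of all genes. All 36 estimates were negative, with a median log2 change of -1.03 beside 0.0 over all genes tested, and the medians by type ran from -0.84 (H2B) to -1.33 (H1). The CPM of both groups did not overlap, with KO+EV lower, in 15 of 36 members and in 11.2% of all genes.

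The count depended on 1 library and on the tool. Without the 3rd KO+EV library 2 members fell, Hist1h1c (-2.54) and Hist1h2bc (-2.82), and DESeq2 called 1, Hist1h1b. The share of all genes called under these settings is not given here, so these calls have no background beside them. The 3rd KO+EV library stood apart in its granulocyte markers, which summed to 53573 CPM, against 9924 and 10289 in the other 2 KO+EV libraries and 8370 to 16218 in WT+EV. Mpo, 1 of these markers, ran from 3268 to 33182 CPM in KO+EV and from 993 to 1648 in WT+EV, so 1 gene weighs heavily in that sum. Of the 10 granulocyte markers 5 fell in KO+EV (edgeR, median -2.22) and 0 rose. Their part in the histone result was not tested.

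**Figure D2:**
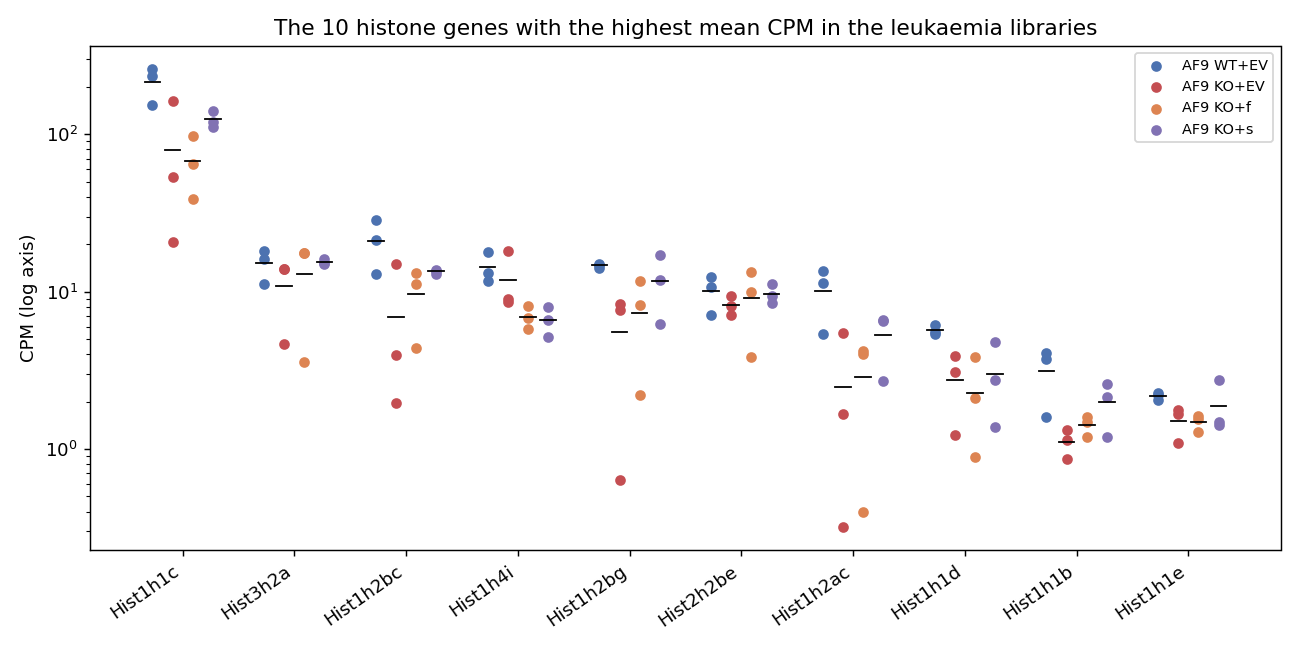
CPM (log axis) of the 10 histone genes with the highest mean in leukaemia, 1 point per library and a bar at the mean of each group (n = 3). In Hist1h2bg and Hist1h2ac 1 KO+EV and 1 KO+f library lie far below the other two of their group.

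By type, the levels of H2A and H2B summed over all members did not overlap between the groups, and those of H1, H3 and H4 did. H2B summed to 51.1 to 62.4 CPM in WT+EV and 15.9 to 35 in KO+EV, and H2A to 24.9 to 36.8 against 7.5 to 22.6. H1 summed to 169 to 274 against 24.5 to 170, an overlap of the highest KO+EV and the lowest WT+EV library only. H3 (6.92 to 12.5 against 3.57 to 8.54) and H4 (16.5 to 28.1 against 10.3 to 20.8) overlapped. The log2 ratio of the summed CPM over all members was -1.22, and -1.88 without the 3rd KO+EV library. Sums carry no test here, because the members were chosen together.

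No gene of the lists around DNA copying and histone RNA passed in this comparison. None of the 37 S phase genes tested passed in KO+EV against WT+EV (median -0.04, 5 at an unadjusted p under 0.05), and their summed CPM was 6644 to 8113 against 6822 to 7665. The 24 histone RNA processing genes (Slbp, the U7 proteins and the cleavage factors, for example) also held 0 calls (median 0.02, 1 at an unadjusted p under 0.05). The 19 polyadenylation factors had 0 calls and 0 at an unadjusted p under 0.05, the 23 histone chaperones 0 and 1, and the 12 replication-independent histones 0 and 2. Slbp was at 116 to 132 CPM in KO+EV and 140 to 173 in WT+EV.

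After f-PRDM16 was put back, histone RNA stayed spread out and no member passed. KO+f and KO+s are both set against KO+EV, so these comparisons share their control libraries. Hist1h1c was at 97.3, 65.1 and 39.0 CPM in KO+f, within the KO+EV range, with a log2 change of -0.23 ± 0.58 (edgeR adjusted p = 0.815) that was 0.86 without the 3rd KO+EV library. The smallest p was that of Hist1h4i, at 5.83, 8.15 and 6.79 CPM against 8.95, 8.6 and 18 in KO+EV (-0.77 ± 0.31, edgeR adjusted p = 0.126). Its groups did not overlap. Next was Hist1h1a, at 1.46, 1.53 and 1.82 CPM, above all 3 KO+EV libraries (1.00 ± 0.43, edgeR adjusted p = 0.144), and then Hist1h2ae, an H2A gene (0.94 ± 0.51, edgeR adjusted p = 0.247).

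Of the 36 members tested 0 passed edgeR, against 11.3% of all genes, and 0 passed DESeq2. 2 had an unadjusted p under 0.05, Hist1h4i lower and Hist1h1a higher, against 29.1% of all genes. The median log2 change was 0.24 (all genes -0.01), with 26 of 36 positive. Of the S phase genes, 6 of 37 fell and 0 rose in KO+f (edgeR, median -0.41). Lig1, the ligase that joins newly made DNA fragments, fell from 275 ± 29.7 to 171 ± 20.7 CPM (SD, n = 3; edgeR adjusted p = 0.00989), and Cdc45, part of the replicative helicase, from 150 ± 22.3 to 93.2 ± 13.7 CPM (edgeR adjusted p = 0.0166). Histone RNA processing genes held 1 lower call of 24, the cap-binding Ncbp1 (-0.44 ± 0.13), chaperones 4 lower and 1 higher of 23, and replication-independent histones and polyadenylation factors 0 of 12 and 0 of 19 (3 and 6 at an unadjusted p under 0.05).

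With s-PRDM16 the 3 most abundant members were close together over the libraries, and others were not. Hist1h1c was at 120, 111 and 141 CPM in KO+s, below every WT+EV library and inside the KO+EV range, with a log2 change against KO+EV of 0.65 ± 0.58. Hist1h2bc was at 13.8, 13.6 and 13.0 CPM and Hist3h2a at 15, 16.1 and 15.1. The spread of these 3 genes was smaller than in KO+EV or KO+f. Hist1h2bg, in contrast, was at 6.22, 17.0 and 11.9 CPM, with an SD (5.37) above those of KO+EV (4.29) and KO+f (4.79). Hist1h1d was at 1.38, 2.76 and 4.81 CPM and Hist1h2ac at 2.71, 6.59 and 6.55. Hist1h4i was at 5.15, 6.59 and 7.94 CPM in KO+s, below all KO+EV libraries (-0.85 ± 0.31, edgeR adjusted p = 0.0551). Hist1h1a (0.97 ± 0.43, edgeR adjusted p = 0.0997) and Hist1h1b (0.83 ± 0.42, edgeR adjusted p = 0.15) followed in p.

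Here too 0 of the 36 members passed edgeR, while 32.4% of all genes did. At an unadjusted p under 0.05 there were 2, Hist1h4i and Hist1h1a, against 43.8% of all genes. The median was 0.28 (all genes -0.01), with all H1 and H2A members tested positive (medians 0.65 and 0.54) and 4 of 6 H4 and 5 of 8 H3 members negative (medians -0.28 and -0.09). Hist1h4i passed in DESeq2 (-0.84) and without the 1st (-1.02) or 2nd (-1.04) KO+EV library. Without the 3rd, Hist1h1c (1.73) and Hist1h2bc (2.18) rose in its place. For these settings too, the share of all genes called is not given here.

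S phase genes were lower in KO+s. Of 37 S phase genes 24 fell and 0 rose (edgeR, median -0.62). Ccna2, the S phase cyclin, fell from 187 ± 7.69 to 105 ± 9.88 CPM (SD, n = 3; edgeR adjusted p = 0.00111), Cdc6, which loads the helicase, from 84.5 ± 5.09 to 43.4 ± 5.45, and Rrm1, a ribonucleotide reductase subunit, from 572 ± 34.8 to 313 ± 31.3 CPM. Among 24 histone RNA processing genes 8 fell and 0 rose (median -0.39), a share near the 32.4% of all genes that passed in either direction. These included Cstf2 (-0.44 ± 0.11), a cleavage factor, Ncbp1 (-0.51 ± 0.13) and Eri1 (-0.39 ± 0.11), an exonuclease that trims histone RNA ends. Of the 19 polyadenylation factors, a list that also holds Cstf2, 3 fell and 1 rose.

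Histone chaperones, which hand histones to DNA, fell in 12 of 23 cases and rose in 1, Atrx, which deposits H3.3 (0.70 ± 0.13). Chaf1a, of the chromatin assembly factor that follows the fork, fell from 173 ± 15.9 to 115 ± 2.84 CPM (edgeR adjusted p = 0.0036). Of 12 replication-independent histones tested 4 passed, again near the share of all genes. Of these 2 rose, the H3.3 genes H3f3b (525 ± 101 to 1147 ± 169 CPM, edgeR adjusted p = 0.00219) and H3f3a (141 ± 5.09 to 201 ± 43.2). In the same list 2 fell, the macroH2A genes H2afy2 (32.5 ± 8.91 to 1.08 ± 0.862 CPM) and H2afy3. Granulocyte markers rose in 7 of 10 cases in KO+s and fell in 0 (edgeR), where 32.4% of all genes passed in either direction. Their sum in KO+s, 23232 to 26646 CPM, lay inside the KO+EV range of 9924 to 53573. Mpo, 1 of the markers, had a lower mean in KO+s (5449 ± 3601 CPM) than in KO+EV (13446 ± 17095). The part of these markers in the changes was not tested.

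Between the 2 isoforms no histone gene passed the test. Of 36 members 0 passed edgeR or DESeq2 and 0 had an unadjusted edgeR p under 0.05, where 3.81% of all genes passed edgeR and 22.5% had an unadjusted p under 0.05. The smallest p was that of Hist1h4f, an H4 gene at 0.0888, 0.159 and 0.205 CPM in KO+s and 0.535, 0.479 and 0.177 in KO+f (-1.37 ± 0.78, edgeR adjusted p = 0.323). Hist1h3g (-0.63 ± 0.41, edgeR adjusted p = 0.384) and Hist1h1c (0.89 ± 0.58, edgeR adjusted p = 0.394) came next. All 3 Hist1h1c values of KO+s lay above those of KO+f. The median change was -0.02 for members and for all genes, and the log2 ratio of the sums was 0.58.

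**Figure D3:**
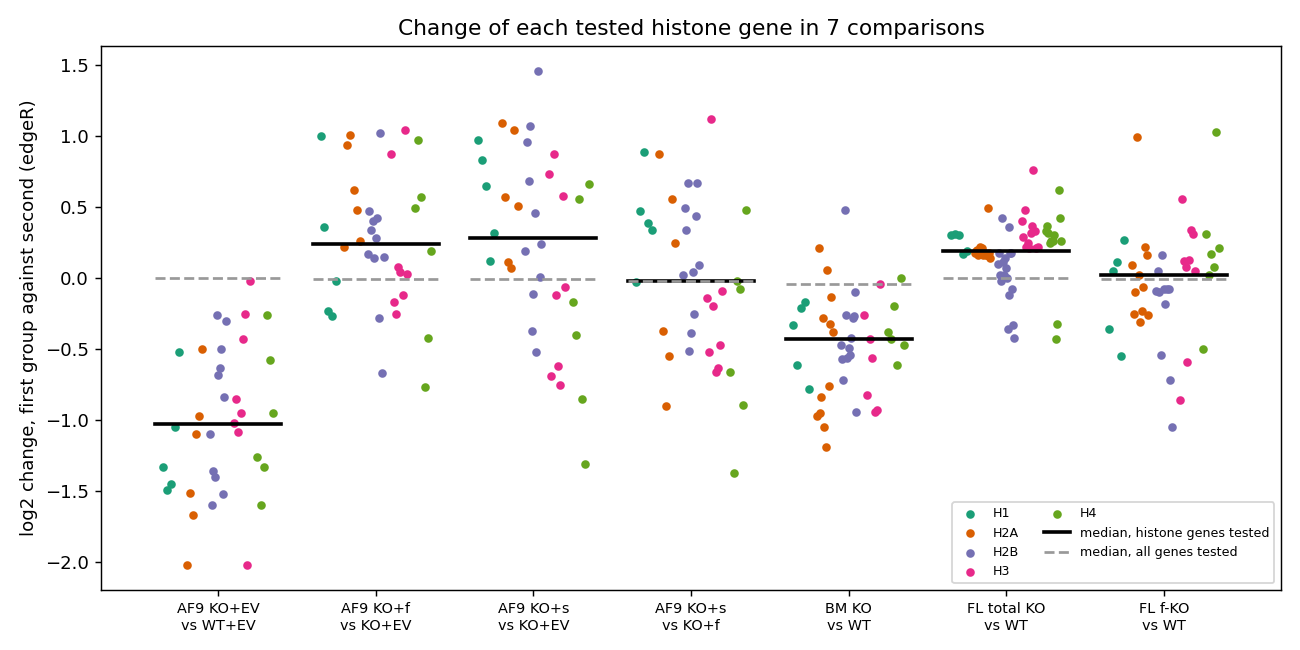
Log2 change (edgeR) of each histone gene tested, coloured by type, in the 7 comparisons, with the median of the histone genes (solid) and of all genes tested (dashed). All 36 points lie below 0 for KO+EV against WT+EV, and the medians of the other leukaemia comparisons lie between -0.02 and 0.28.

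In adult bone marrow HSCs the mix was more even. Hist1h1c was the highest member in 6 of 8 libraries and Hist1h4d in the other 2. Per kilobase, Hist1h1c (45.8 CPM), Hist1h2bc (43.4), Hist1h4d (37.7) and Hist1h1b (34.7) were close. Hist1h1c was at 81.6, 89.4, 66.4 and 69.2 CPM in WT and 49.8, 47.0, 94.4 and 73.4 CPM in the libraries labelled KO. These overlap at both ends.

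Most estimates were lower in the libraries labelled KO, and none passed. Hist1h2bc had the smallest p, at 55.3, 80.4, 45.8 and 58.2 CPM in WT and 32.1, 30.8, 40.2 and 58.7 in KO (-0.57 ± 0.24, n = 4 and 4; edgeR adjusted p = 0.581). 3 of its 4 KO libraries lie below every WT library. Hist3h2ba, an H2B gene, was at 9.56, 15.5, 8.64 and 10.1 against 3.24, 3.07, 9.43 and 7.04 CPM (-0.94 ± 0.40, edgeR adjusted p = 0.581). Hist1h1e, the H1.4 linker histone, was at 17.8, 43.9, 32.3 and 71.1 against 23.3, 30.6, 20.5 and 21.4 CPM (-0.78 ± 0.34, edgeR adjusted p = 0.583). For Hist1h1e the wild types alone span the whole range.

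Of 56 members 43 passed the filter, and 0 passed edgeR or DESeq2, as did 0 of all 13495 genes (0.0%). At an unadjusted p under 0.05 there were 3, the genes just named, against 8.31% of all genes. The median was -0.43 beside -0.04 over all genes, with 40 of 43 negative. In 0 of 43 members were all KO libraries below all WT libraries, which held for 2.93% of all genes.

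The wild-type libraries of bone marrow differed widely, and S phase genes differed with them. Hist1h1b was at 6.59, 34.9, 22.3 and 60.7 CPM in WT replicates 1 to 4 and at 14.8, 30.1, 21.7 and 14.9 in KO. Hist1h2ae was at 4.94, 12.3, 12.5 and 32.2 CPM in WT and 6.25, 11.5, 9.69 and 7.08 in KO. The summed S phase genes of the same WT libraries were 3602, 5091, 6033 and 8007 CPM, and 5614 to 6660 in KO. The lowest and the highest WT library were the same in both. Hist1h1c, in contrast, was not highest in WT replicate 4. Their part in these values was not tested. In each of the 3 HSC comparisons 0 genes passed edgeR in the S phase, processing, chaperone, polyadenylation and replication-independent lists, with S phase medians of 0.08 in bone marrow, 0.15 in the total knockout and 0.12 in the f-PRDM16 knockout (2, 1 and 3 of 37 at an unadjusted p under 0.05).

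In the fetal HSCs of the f-PRDM16 knockout both groups had like means and 1 library number stood high in each. Hist1h1c was at 5.43, 6.27 and 37.5 CPM in WT and 4.62, 13.3 and 35.2 in KO. Hist1h2bg was at 0.688, 1.35 and 10.3 against 0.257, 1.24 and 6.99 CPM. Hist1h1d, the H1.3 linker histone, was at 1.42, 2.99 and 10.7 against 2.11, 2.07 and 6.1 CPM. In each gene the library numbered 3 is the highest of both groups by a wide margin.

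Hist1h4d did not follow. It was at 15.3, 16.6 and 16.8 CPM in WT and 15.4, 17.6 and 16.4 in KO, a span of 1.15-fold over 6 libraries, the smallest of the 10 leading members. Hist1h2bc (15.5, 20.1 and 37.1 against 15.9, 30.9 and 28.4 CPM) and Hist1h1b (12.8, 13.7 and 23.4 against 14.3, 14.8 and 22.3 CPM) lay between. Per kilobase Hist1h1b (22.7 CPM) and Hist1h2bc (21.3) led, and Hist1h1c (10.9) was lower than in the adult or leukaemia tables.

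The library numbered 3 was the highest of its group, in both groups, for 38 of 43 members tested and for 18.1% of all genes. The same library numbers were highest in granulocyte markers, at 19932 CPM in WT (3140 and 6839 in the others) and 48837 in KO (7569 and 30988), all 10 markers being detected. Their summed S phase genes were not higher, at 8485 CPM in WT (9260 and 9976 in the others) and 10312 in KO (9796 and 10644). The part of either in the histone levels was not tested.

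Between knockout and wild type 0 of 43 members (of 56) passed edgeR or DESeq2, as did 0 of all 13631 genes (0.0%). None had an unadjusted edgeR p under 0.05 (all genes 2.62%). The median was 0.02 (all genes -0.01), with 23 of 43 positive. Paired by number, the summed members sharing under 20% differed by 0.03, 0.13 and -0.21 on the log2 scale (knockout over wild type). The 2 H2A genes among them were lower in every pair (-0.26, -0.25 and -0.26), led by Hist3h2a at 7.32, 9.68 and 14.4 CPM in WT and 6.1, 7.97 and 12.2 in KO. Over all H2A members there was no common direction (-0.15, 0.01 and -0.13). The H2B genes sharing under 20% had none either (0.03, -0.61 and -0.69). H4 was higher in every pair over all its members (0.04, 0.13 and 0.06) and over those sharing under 20% (0.03, 0.14 and 0.03). These differences are smaller than the spread between numbers, the sums carry no test, and 0 members passed with the number as a block (1 at an unadjusted p under 0.05). The smallest p without the block belonged to Hist1h2af, an H2A gene at 0.172, 0.231 and 0.325 against 0.342, 0.419 and 0.694 CPM (0.99 ± 0.64, edgeR adjusted p = 0.999), Hist2h2be (-0.72 ± 0.47) and Hist3h2ba (-1.05 ± 0.82), both with the same adjusted p.

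In the fetal HSCs of the total knockout the listed levels were led by copies. Hist1h2bq and Hist1h2br were at 475 to 1318 CPM in WT and 581 to 1697 in KO, and Hist1h2ao and Hist1h2ap at 439 to 1284 and 543 to 1661. All 10 leading members were H2A or H2B genes, and their values moved in parallel over the 6 libraries, with spans of 3.55 to 3.86-fold. Because these rows can hold the same reads, each is uncertain as a gene. 

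Members with mostly unshared sequence had lower levels. Summed over 14 genes sharing under 20%, they were at 111, 91.3 and 139 CPM in WT and 117, 109 and 151 in KO. The median ratio of these 14 to the other fetal wild types was 0.804, but some stood far higher here. Mean WT levels were 9.39 against 0.347 CPM for Hist1h2bh, 13.2 against 1.55 for Hist1h2be and 35.4 against 10.5 for Hist3h2a. Whether reads from copies enter this sum was not tested. Each knockout library was above the wild type of the same number, by 0.07, 0.26 and 0.12 on the log2 scale, and the groups overlapped. Over all members the sums were 5457, 3399 and 9147 against 4494, 4186 and 11796 CPM, with no common direction, and follow the H2A and H2B copies. H1 was higher in the knockout of every number (log2 0.19, 0.46 and 0.21), as was H3 (0.24, 0.45 and 0.39). None of the H3 genes shares under 20%, so the H3 sum rests on rows that can hold the same reads. H4 was higher in every number over its members sharing under 20% (0.31, 0.35 and 0.19) but not over all of them (-0.1, 0.16 and 0.65). These type sums carry no test. Hist1h1c was at 15.8, 12.3 and 12.9 in WT and 18.2, 15.7 and 16.6 CPM in KO (0.30 ± 0.16, edgeR adjusted p = 1.0).

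The 3 smallest p belonged to Hist1h2bp, an H2B gene at 12.2, 11.4 and 11.8 against 14.7, 12.2 and 18.5 CPM (0.36 ± 0.19), to Hist1h1c and to Hist1h3a, an H3 gene at 2.0, 2.2 and 2.73 against 2.32, 3.14 and 3.7 CPM (0.40 ± 0.28). Each had an edgeR adjusted p of 1.0. Of 65 members 63 passed the filter, and 0 passed edgeR or DESeq2, as did 0 of 15590 genes (0.0%). None had an unadjusted edgeR p under 0.05 (all genes 4.74%). The median was 0.19 beside 0.0 over all genes, with 55 of 63 positive, a count in which shared reads enter more than once.

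The libraries numbered 3 stood high here as well. They were the highest of their group in both groups for 42 of 63 members, a count in which shared reads enter more than once, and for 28.0% of all genes. Hist1h1b was at 2.66, 1.98 and 9.29 CPM in WT and 3.61, 3.55 and 10.2 in KO. Hist1h1c was not highest in that number. Granulocyte markers were again highest in number 3 (1704 CPM in WT against 168 and 259, 13504 in KO against 738 and 1435). Their part was not tested.

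**Figure D4:**
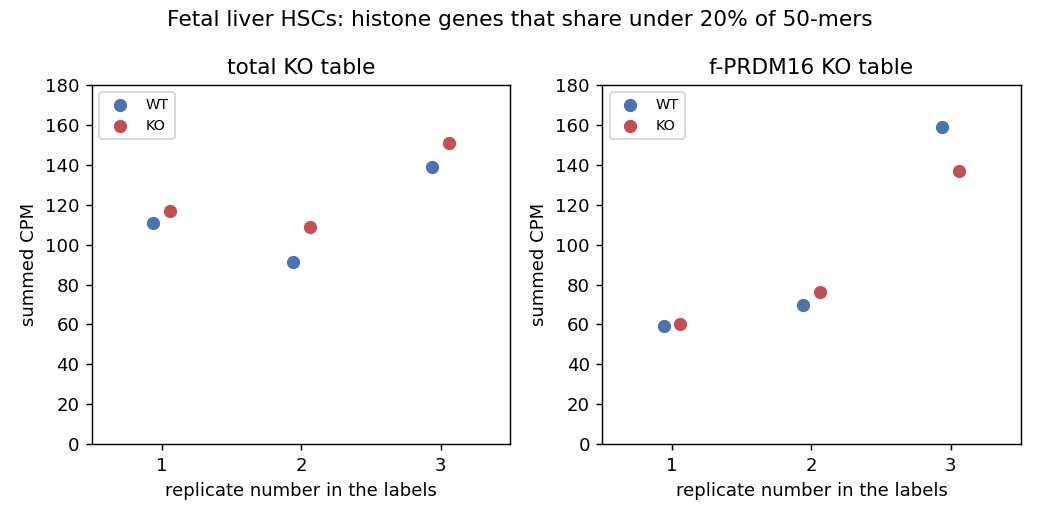
Summed CPM of the histone genes that share under 20% of their 50-mers, by replicate number, in the fetal tables of the total knockout and of the f-PRDM16 knockout (1 point per library). Number 3 is highest in both groups of both tables, at 139 and 151 and at 159 and 137 CPM.

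Set side by side, the leading type differed between the 3 tables with few counts on copies, with no test across tables. Per kilobase, H1 led in 11 of 12 leukaemia libraries, in 5 of 8 bone marrow libraries (H2B in the other 3) and in none of 6 libraries of the f-PRDM16-knockout fetal table, where H2B led in 6 of 6. H3 was lowest in 11, 8 and 6 of these libraries. The median for H1 was 79.3 CPM per kilobase in leukaemia, 97.8 in bone marrow and 32.4 in the fetal table, and for H3 8.87, 15.5 and 7.29. The tables differ in preparation, since HSC libraries had a SMARTer low-input amplification and leukaemia libraries did not, so cell type and preparation cannot be told apart between leukaemia and HSCs. The adult and fetal HSC libraries carry the same protocol label, and their difference in leading type was not tested.

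**Figure D5:**
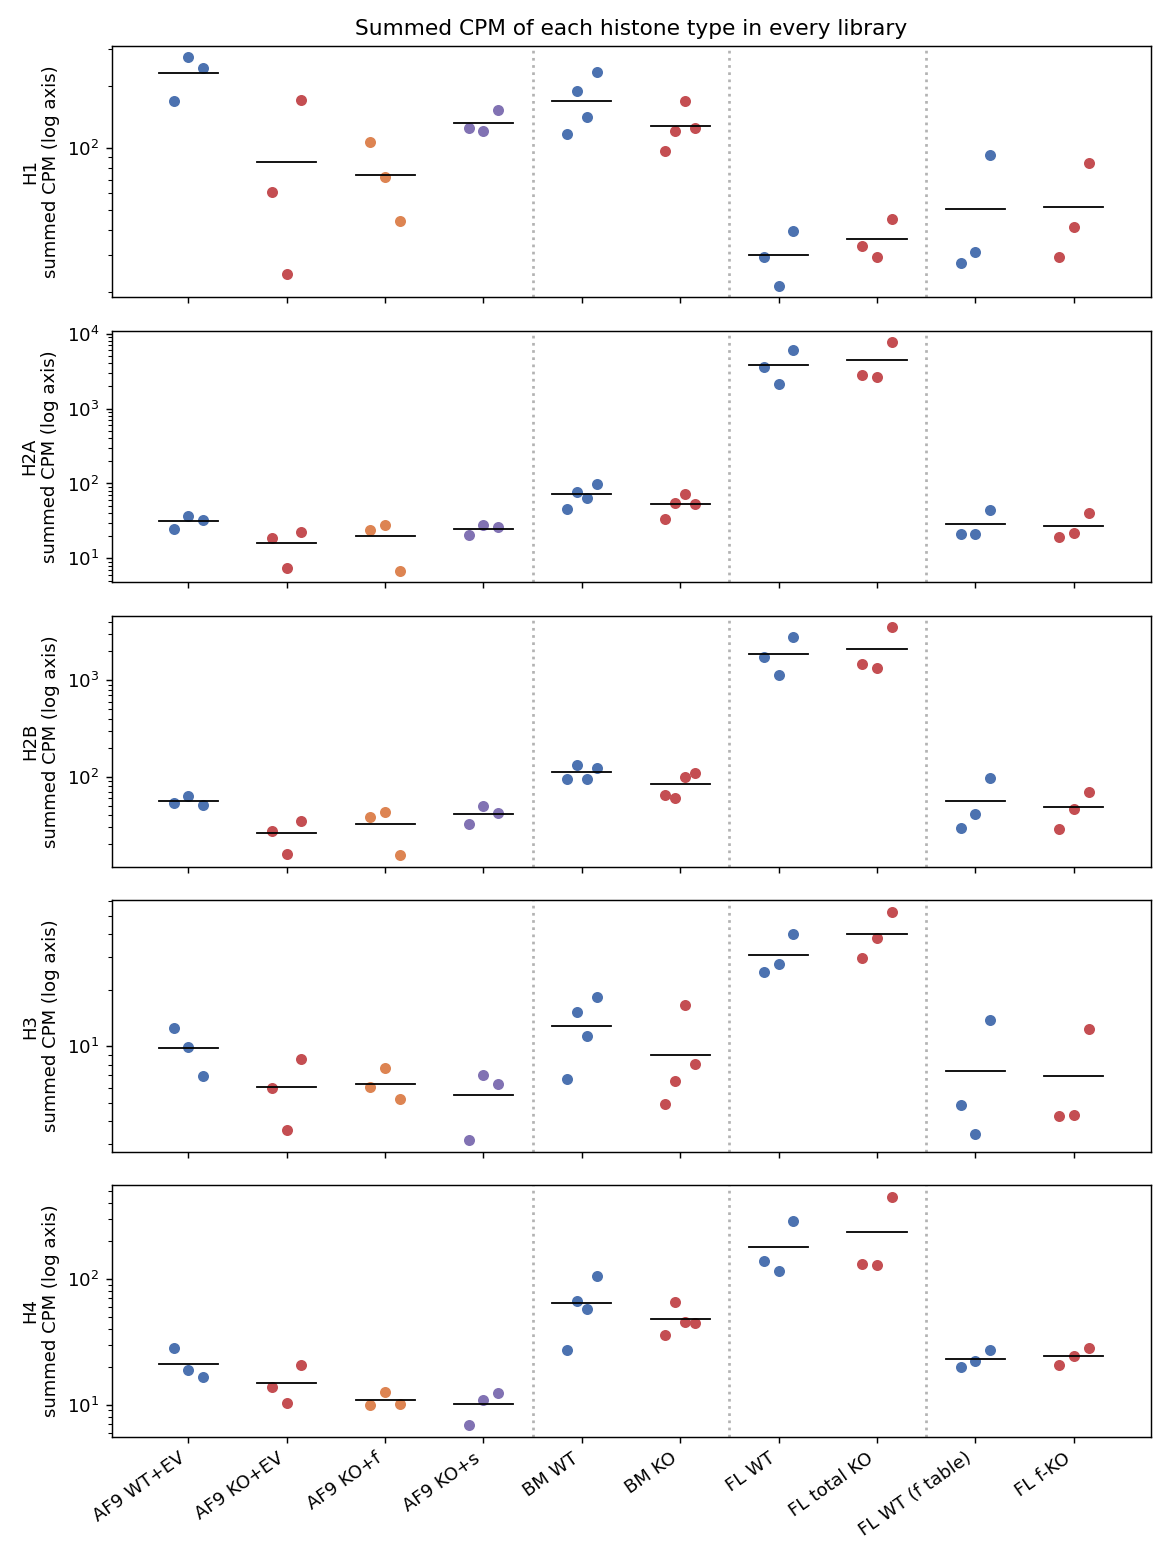
Summed CPM of H1, H2A, H2B, H3 and H4 genes in each of 32 libraries (log axes), with the mean of each group as a bar. Dotted lines divide the 4 tables. H2A and H2B of the total-knockout fetal table (FL) stand at 1131 to 7678 CPM, where shared copies are listed.

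Over the 12 leukaemia libraries, the genes whose log2 CPM ranked most like the summed histone CPM were Egr2 (Spearman 0.944), an early response transcription factor, Serp1 (0.944), a protein of the endoplasmic reticulum, Macrod2 (0.93), Prps1l1 (0.916) and Cd63 (0.909), a tetraspanin of late endosomes, out of 11757 genes compared. For comparison, chosen after the values were seen, Slbp had 0.573, Pcna 0.552, Mcm5 0.42 and Mki67 -0.147. These libraries share their group differences, so the values describe likeness only.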

How the data were processed

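RNA counts per gene from 32 mouse libraries were used as deposited by the authors in 4 tables. Per the submitters' processing notes, the tools named are bcl2fastq 2.17, TopHat and DESeq, and the genome build is mm9. The counting tool, annotation, strand and treatment of reads with several matches are not given in the sources used here. Libraries followed a poly-A pull-down, with SMARTer amplification for HSCs, per the labels' protocols. Spike-in rows were dropped, and 0 columns were unmatched. edgeR 4.0.16 (under R 4.3.3) gave a two-sided quasi-likelihood test with robust dispersions after TMM scaling and its default low-count filter, with Benjamini-Hochberg adjustment over all genes tested and a threshold of 0.05. It was fitted to the 12 leukaemia libraries together and to each HSC table alone, and checked on simulated data. The simulation used the same spread for every table and changed only well-counted genes. The estimated spread (biological coefficient of variation) ran from 0.253 in leukaemia to 0.377 in the f-PRDM16-knockout fetal table. The check therefore does not cover rarer members or the more variable tables. Alternatives were DESeq2 1.42.0, its size factors, no filter, the replicate number as block, 2 groups alone and each library left out. Errors are SE for log2 changes and SD for CPM. Replicates are independent per the design text.

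Named members were the 10 highest per table and, with none passing, the 3 with the smallest p per comparison. Context genes were up to 4 per list. Members and lists were chosen with earlier results of these data known. Transcripts came from GENCODE M21 (GRCm38), and all 68 rows matched. Same-numbered libraries deviated together in the fetal tables (correlations 0.415, 0.202 and 0.626, and 0.624, 0.351 and 0.519). In the other comparisons the correlations ran from -0.195 to 0.311. Figures used Python 3.11.15.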

Additional observations from a re-analysis of the deposited data

Results flagged for a closer look

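In the bone marrow groups of 4, each named member and each type sum was checked for a library far from the others (31 values in each group), of which chance flags about 1 in 20 groups. There were 3. Hist1h2be was at 6.53 CPM in WT replicate 4, with the next at 2.67 and the lowest at 2.2. Hist1h3a was at 6.17 CPM in replicate 3 of the libraries labelled KO, with the next at 1.63. Hist1h4f was at 0.0381 CPM in KO replicate 1, with the next at 0.176 and the highest at 0.204; the gene held 63 counts over the 8 libraries.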

How the results depend on the processing

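The number of members passing stayed at 0 in every comparison with DESeq2 size factors, without a low-count filter, with 2 leukaemia groups alone and, in the fetal tables, without both libraries numbered 3 (added after seeing the data). With the replicate number as a block it was 0 in all 7 comparisons, so the block changed no call. DESeq2 gave 1 for KO+EV against WT+EV (Hist1h1b) and 1 for KO+s against KO+EV (Hist1h4i). Leaving out each library gave 0 to 2 in both of these and 0 elsewhere. Shares of all genes called under these settings are not given here. The Hist1h1c change in KO+f against KO+EV ran from -0.69 to 0.86 when each library was left out and turned positive under the block (0.01) and without the 3rd KO+EV (0.86) or 3rd KO+f library (0.04). The cause was not tested. The log2 ratio of sums ran from -1.88 to -0.85 for KO+EV against WT+EV when each library was left out, -0.42 to 0.61 for KO+f and 0.16 to 1.19 for KO+s against KO+EV, 0.3 to 0.8 for KO+s against KO+f, -0.57 to -0.24 in bone marrow, -0.47 to 0.62 for the total knockout and -0.46 to 0.51 for the f-PRDM16 knockout. Depth limits the rarest members, the lowest holding 11, 24, 16 and 20 counts over the libraries of the leukaemia, bone marrow, total-knockout and f-PRDM16-knockout tables.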
